A study of Caenorhabditis elegans with 6 samples.

Results

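The genes described here are the hedgehog-related and patched-related genes of Caenorhabditis elegans, chosen by name: every locus of the warthog (wrt), groundhog (grd), ground-like (grl) and patched-related (ptr) families, with qua-1, hog-1, ptc-1, ptc-2, ptc-3, ptd-2, che-14 and tra-1. They are 88 of the 42402 loci in the authors' deposited tables. The 88 comprise 10 wrt, 16 grd and 31 grl genes, qua-1, hog-1, 3 ptc and 23 ptr genes, the Dispatched-like genes che-14 and ptd-2, and tra-1. In the annotation 87 are protein-coding and ptc-2 is listed as a pseudogene.

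Small RNAs were sequenced from whole worms collected as young mothers, after synchronization by starvation and growth at 20 °C on HT115 bacteria that carried the L4440 vector. The triple mutant strain carried hrde-1(tm1200), meg-3(ax3055) and meg-4(ax3052). The meg-3 meg-4 strain (JH3745, outcrossed) carried meg-3(ax3055) and meg-4(ax3052), and the hrde-1 strain carried hrde-1(tm1200). Each strain had 2 libraries, and N2, the wild type, enters here through the fold changes in the authors' deposited tables. HRDE-1 is a nuclear Argonaute of the germ line, and MEG-3 and MEG-4 are proteins that P granules need to assemble in the embryo. The title of the series is about hrde-1 loss and a gain of small RNAs at rde-11 and sid-1 in meg-3 meg-4 worms, and it names none of the genes below. The labels do not say that the libraries of a strain came from separate cultures, so the p-values rest on the spread between these libraries only. limma also draws on that spread at other loci.

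C. elegans lacks a clear ortholog of Hedgehog itself and of its transducer Smoothened, yet it has large families of secreted hedgehog-related proteins. Some proteins of the warthog, groundhog and quahog families, but not all, pair an amino-terminal domain of their own with a Hog domain. The Hog domain is the part that cleaves itself in Hedgehog proteins, and ground-like proteins lack it. Patched and patched-related proteins span the membrane many times and carry a sterol-sensing domain. Members of both groups are known for roles in the epidermis, in moulting and in the movement of lipids and vesicles. The values below are not messenger RNA levels. They count small RNA reads at each locus, and in worms such reads at protein-coding genes are mostly secondary small interfering RNAs that RNA-dependent RNA polymerases copy from messenger RNA. The RNA was treated with a 5′ polyphosphatase, which makes these RNAs ligatable.

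Levels are given as RPM, the reads at a locus scaled to a common library size, after the 6 libraries were scaled together, unless another unit is named. Library totals were 6780320 and 2384147 reads in triple mutants, 5628602 and 5115457 in meg-3 meg-4 worms, and 5450690 and 4604636 in hrde-1, so 1 read was worth most in the second triple mutant library. At the mutated genes, meg-4 had 0 reads in all 4 libraries that carry its mutant allele, against 48 and 39 in hrde-1. The meg-3 locus had 0 and 0 reads in triple mutants and 2 and 3 in meg-3 meg-4 worms, against 52 and 22 in hrde-1, while the hrde-1 locus kept 633 to 4138 reads in all libraries, so its reads do not check that allele. Reads at miRNA loci took 28.6% to 32.1% of a library in libraries of triple mutants and of meg-3 meg-4 worms and 18.2% and 19.5% in hrde-1. The second meg-3 meg-4 library had 3145 RPM of its total at 6 yolk protein loci, against 48.98 to 288 in the other 5 libraries. In the same unit, miRNAs of oocytes and embryos had 5209 and 13246 in meg-3 meg-4 worms, and 7968 to 11065 elsewhere. miRNAs of late larval and adult epidermis and other soma had 2754 and 3070 in hrde-1, and 4328 to 5213 elsewhere. 21U-RNA loci of the germ line had 35546 and 42112 in hrde-1, and 25711 to 33234 elsewhere. The part of these differences in the values below was not tested. Whole worms were used, so fewer cells of a type and fewer small RNAs per cell cannot be told apart.

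Few small RNAs lay at these genes, and most of those lay at a handful of them. The 88 genes held 12945 of 29963852 reads, or 0.0432%. Over the 6 libraries 11 genes had no read, 37 had 1 to 9 reads, 57 had 1 to 49, and 20 had at least 50. At least 10 reads were found at 45.5% of the 88 genes and at 65.6% of all 19574 protein-coding loci, and at least 50 reads at 22.7% and 47.9%. wrt-5 alone held 38.0% of the reads, followed by ptr-2 with 14.2%, grl-18 with 11.3% and ptc-1 with 7.90%. These are shares of reads not divided by gene length. The 20 genes with at least 50 reads held 95.8%. The other 68 held 549 reads together, none of them reached more than 7.03 RPM in any library, a value of ptr-12 in the second triple mutant library, and the authors' deposited tables called none of them. A gene with 0 reads in a library could still have had up to 3 reads by counting error.

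**Figure D1:**
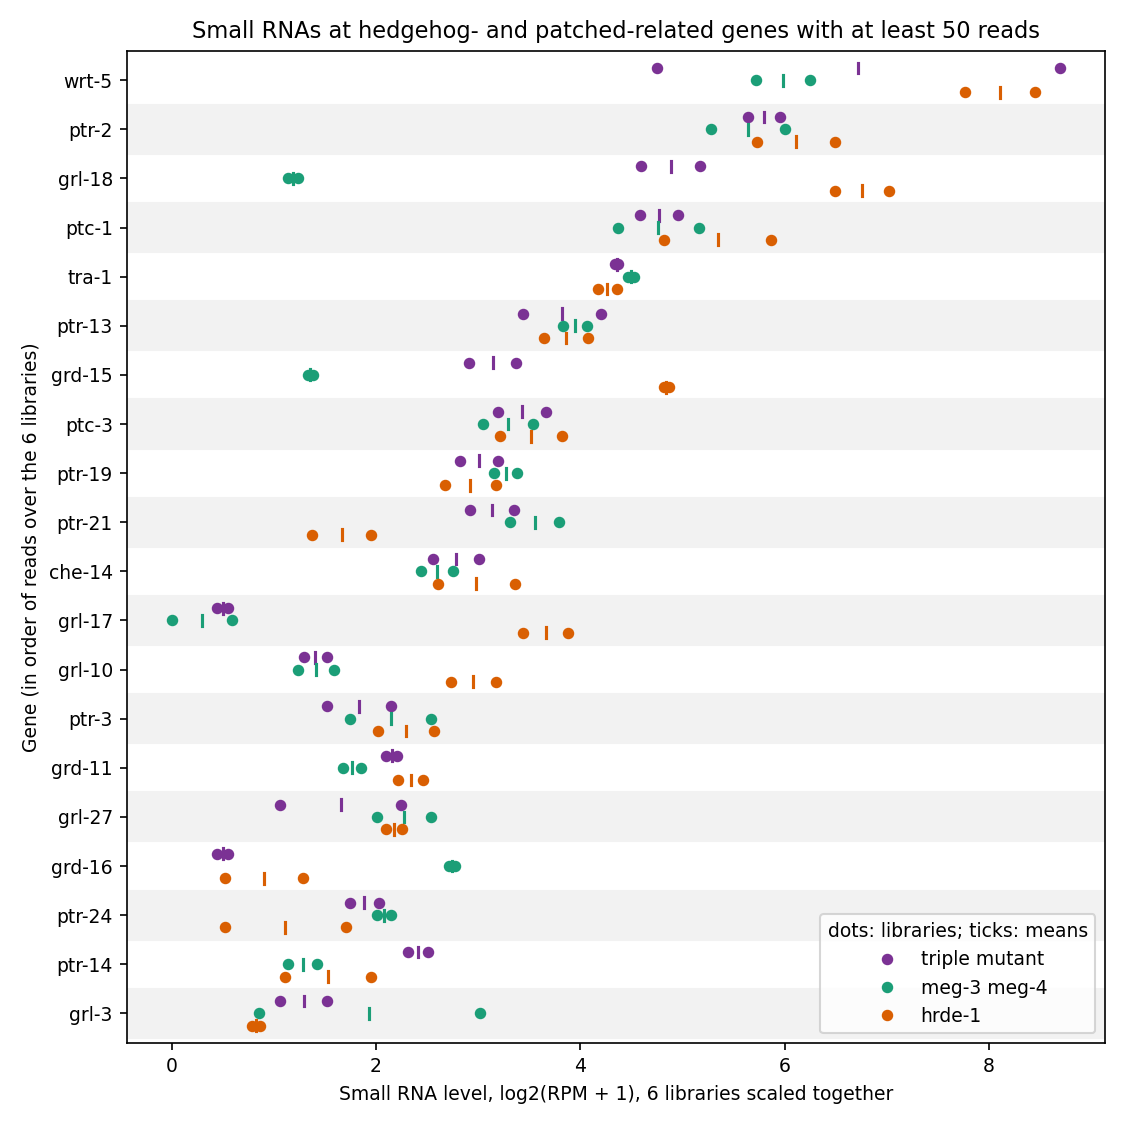
Small RNA level at the 20 genes with at least 50 reads, as log2(RPM + 1) on the x axis, for triple mutant, meg-3 meg-4 and hrde-1 libraries (dots) with their means (ticks). grl-18 and grd-15 stand apart in all 3 strains, grl-17 and grl-10 are high in both hrde-1 libraries, grd-16 in both meg-3 meg-4 libraries, and the triple mutant dots of wrt-5 lie far apart.

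Summed over all 88 genes, the RPM of the library total were 190 and 586 in triple mutants, 305 and 222 in meg-3 meg-4 worms, and 718 and 759 in hrde-1. Without wrt-5 the sums were 169 and 214 in triple mutants, 226 and 171 in meg-3 meg-4 worms, and 445 and 390 in hrde-1. Both hrde-1 libraries were above the other 4 in either sum, and without wrt-5 the other 4 libraries overlapped between strains. The share of miRNA reads was lowest in the same hrde-1 libraries, and its part in these sums was not tested. The ground-like family had 27.4 and 43.6 in triple mutants, 20.3 and 13.1 in meg-3 meg-4 worms, and 141 and 170 in hrde-1. Most of the ground-like reads in hrde-1 lay at grl-18, so this sum does not describe the family as a whole. Of 7 ground-like genes with an adjusted p for hrde-1 over N2, 3 had a fold change above 0 and 4 below.

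Among the warthog genes, secreted proteins best known from the epidermis, wrt-5 was the one with more than 38 reads. It is needed for the development of the hypodermis. wrt-5 had 25.8 and 415 RPM in triple mutants, 75.3 and 51.8 in meg-3 meg-4 worms, and 216 and 349 in hrde-1. Triple mutant libraries differed by 16.1-fold, lay on either side of all 4 other libraries, and averaged 220 ± 275 RPM (SD, n = 2). The replicates of the other strains differed by 1.45-fold and 1.61-fold, and both hrde-1 libraries were above both meg-3 meg-4 libraries.

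With this spread, limma called no difference at wrt-5 in the analysis as reported, though other settings did for both comparisons with hrde-1. The log2 fold change was 0.68 (SE 0.80, adjusted p = 0.798, limma) for triple mutants over meg-3 meg-4. It was -1.38 (SE 0.85, adjusted p = 0.447, limma) for triple mutants over hrde-1 and -2.12 (SE 0.85, adjusted p = 0.123, limma) for meg-3 meg-4 over hrde-1. In meg-3 meg-4 worms wrt-5 was lower than in hrde-1 in all 19 settings, by -1.78 to -3.04, and was called in 9 of them, with adjusted p values from 5.74e-05 to 0.364 over the 19. Those 9 were fitting these 2 groups only (adjusted p = 0.000101, limma), scaling with DESeq2 size factors or to miRNA reads, testing every locus above 0, the replicate block, and leaving out any 1 library of triple mutants or of meg-3 meg-4 worms. Without the first triple mutant library, the value over meg-3 meg-4 worms became 2.65 with an adjusted p of 0.00753 (limma), and without the second it became -1.30; over hrde-1 the same omissions gave 0.59 (adjusted p = 0.976, limma) and -3.36 (adjusted p = 1.46e-07, limma). Over hrde-1 wrt-5 in triple mutants was also called lower with these 2 groups only (-1.41, adjusted p = 0.000237, limma), and changed by -1.38 without the second meg-3 meg-4 library. In all, 3 of 19 settings called it. The triple mutant libraries lay on either side of both hrde-1 libraries, and limma shares its estimate of spread over loci. That small adjusted p therefore does not measure the spread at wrt-5 itself. The direction at wrt-5 in triple mutants therefore rests on which library is used. The authors' deposited tables gave wrt-5 a log2 fold change of 1.74 (adjusted p = 0.977) for triple mutants over meg-3 meg-4, 7.03 (adjusted p = 0.000100) for triple mutants over N2 and 7.45 (adjusted p = 1.17e-61) for hrde-1 over N2. The other 9 wrt genes held 1 to 38 reads each, wrt-7 the most, and none was called in the authors' deposited tables.

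In the ground-like family, secreted proteins whose reporters often mark epidermal, glial or other lining cells, small RNAs at grl-18 differed between all 3 mutant strains. grl-18, whose promoter is used to mark glia of the inner labial sense organs, had 23.1 and 35.2 RPM in triple mutants, 1.35 and 1.20 in meg-3 meg-4 worms, and 89.3 and 129 in hrde-1. The groups did not overlap: meg-3 meg-4 was lowest with 8 and 6 reads, hrde-1 was highest, and triple mutants lay between. In the deposited signal of the table that holds both strains, grl-18 averaged 26.3 ± 7.72 in triple mutants and 1.20 ± 0.0566 in meg-3 meg-4 worms (SD, n = 2 each).

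limma called grl-18 in each of the 3 comparisons. On the log2(value + 1) scale it was higher by 3.60 in triple mutants than in meg-3 meg-4 worms (SE 0.50, adjusted p = 0.000199, limma), where the median of all loci tested was -0.11. It was the 1 gene called of the 6 that passed the filter on the mean, against 7.75% of all loci tested (4.3% higher and 3.44% lower), and it passed that filter through triple mutants alone. Relative to hrde-1, grl-18 fell by 1.88 in triple mutants (SE 0.34, adjusted p = 0.00233, limma) and by 5.57 in meg-3 meg-4 worms (SE 0.34, adjusted p = 1.70e-07, limma). The authors' deposited tables gave it 4.44 (adjusted p = 1.40e-10) over meg-3 meg-4 worms and 3.67 (adjusted p = 1.68e-13) over N2 for triple mutants, and 5.65 (adjusted p = 3.94e-40) for hrde-1 over N2.

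grl-17 and grl-10 were high in hrde-1 alone of the 3 mutant strains. grl-17 had 2 and 1 reads in triple mutants, 3 and 0 in meg-3 meg-4 worms, and 68 and 67 in hrde-1. grl-10 had 8 and 4 reads in triple mutants, 8 and 10 in meg-3 meg-4 worms, and 39 and 39 in hrde-1. For both genes the hrde-1 libraries were above the other 4, and the other strains overlapped.

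The means of grl-17 and grl-10 were under the 10 RPM that a locus needed to be tested. With that minimum at 2 RPM, limma called both lower in triple mutants than in hrde-1, grl-17 by -3.16 (adjusted p = 0.000208) and grl-10 by -1.55 (adjusted p = 0.0332). Both passed that minimum through hrde-1. With every locus above 0 tested, the adjusted p of grl-10 in triple mutants was 0.0745 (limma). The corresponding values for meg-3 meg-4 over hrde-1 were -3.37 (adjusted p = 5.57e-05, limma) and -1.54 (adjusted p = 0.0201, limma). Over N2, hrde-1 had 7.20 (adjusted p = 3.49e-05) at grl-17 and 2.70 (adjusted p = 0.00255) at grl-10 in the authors' deposited table, while triple mutants had 2.25 and 0.57 with no adjusted p. grl-17 overlaps C56A3.8 and 3 noncoding loci on the other strand, and grl-10 overlaps rpl-39 on the other strand. The strand setting of the counting was not given in the sources used here, so reads of overlapping genes may have been shared between them. C56A3.8 had 23 and 7 reads in triple mutants, 24 and 19 in meg-3 meg-4 worms, and 25 and 26 in hrde-1, so its hrde-1 libraries were within 2 reads of the first meg-3 meg-4 library.

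grl-27 and grl-3 had other patterns. grl-27 had 1.08 and 3.75 RPM in triple mutants, 3.04 and 4.82 in meg-3 meg-4 worms, and 3.77 and 3.29 in hrde-1, and all 3 strains overlapped. The authors' deposited tables called it lower than N2, by -3.58 (adjusted p = 4.38e-09) in triple mutants and by -2.69 (adjusted p = 9.37e-08) in hrde-1, beside -0.88 (adjusted p = 0.997) for triple mutants over meg-3 meg-4. grl-3 had 42 and 4 reads in the 2 meg-3 meg-4 libraries and 4 to 6 in the other 4, so 1 library held most of its reads.

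Among the groundhog genes, which also encode secreted proteins, only grd-15, grd-16 and grd-11 had 10 reads or more. grd-15 had 6.51 and 9.37 RPM in triple mutants, 1.52 and 1.61 in meg-3 meg-4 worms, and 27.2 and 28.1 in hrde-1. The groups did not overlap and stood in the same order as at grl-18. limma called grd-15 lower by -1.70 in triple mutants than in hrde-1 (SE 0.40, adjusted p = 0.0136, limma) and by -3.48 in meg-3 meg-4 worms than in hrde-1 (SE 0.40, adjusted p = 2.25e-05, limma). Without the first triple mutant library, the change in triple mutants was -1.47 with an adjusted p of 0.145 (limma). With grl-18, grd-15 made 2 of 7 genes called in each of these comparisons, against 10.3% of all loci for triple mutants over hrde-1 (4.37% higher and 5.91% lower) and 16.4% for meg-3 meg-4 over hrde-1 (7.02% higher and 9.38% lower). It passed the filter through hrde-1 alone, and grl-18 through hrde-1 and triple mutants. The medians of all loci tested were -0.18 and -0.15.

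Against meg-3 meg-4, grd-15 in triple mutants was tested at the lower minimum of 2 and was higher by 1.71 (adjusted p = 0.0256, limma). It passed that minimum through triple mutants alone. The authors' deposited table of that comparison gave 2.27 (adjusted p = 0.0684). Over N2 the authors' deposited tables gave -0.78 (adjusted p = 0.306) in triple mutants and 1.14 (adjusted p = 0.0201) in hrde-1. grd-15 overlaps cyn-15 on the other strand, and cyn-15 had 50.8 and 55.8 RPM in triple mutants, 70.0 and 41.2 in meg-3 meg-4 worms, and 83.6 and 60.2 in hrde-1. At cyn-15 hrde-1 was above triple mutants, and meg-3 meg-4 overlapped both.

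grd-16 had the reverse pattern, with small RNAs in meg-3 meg-4 worms and almost none where hrde-1 was mutant. It had 2 and 1 reads in triple mutants, 33 and 29 in meg-3 meg-4 worms, and 3 and 7 in hrde-1. The meg-3 meg-4 libraries, at 5.57 and 5.82 RPM, were above all others, which ranged from 0.361 to 1.44 RPM. At a minimum mean of 2, limma gave -2.21 (adjusted p = 0.00879) for triple mutants over meg-3 meg-4 and 1.84 (adjusted p = 0.0138) for meg-3 meg-4 over hrde-1. In both, grd-16 passed that minimum through meg-3 meg-4 worms alone. The authors' deposited tables gave -3.90 (adjusted p = 0.0223) for triple mutants over meg-3 meg-4, -7.91 (adjusted p = 4.65e-18) for triple mutants over N2 and -6.69 (adjusted p = 2.17e-31) for hrde-1 over N2. grd-11 had 3.61 and 3.28 RPM in triple mutants, 2.19 and 2.61 in meg-3 meg-4 worms, and 3.63 and 4.52 in hrde-1, with meg-3 meg-4 worms lowest, and was called in none of the authors' deposited tables.

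Of the remaining secreted members, qua-1, the quahog gene that worms need to moult, had 4 reads in all. hog-1, which encodes a Hog domain protein, had 9.

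The patched genes are named after the Hedgehog receptor of flies and vertebrates, and ptc-1 was the one that passed the filter on the mean. ptc-1, which is needed for cytokinesis in the germ line, had 22.95 and 29.999 RPM in triple mutants, 34.8 and 19.7 in meg-3 meg-4 worms, and 57.4 and 27.3 in hrde-1. All 3 strains overlapped, and the hrde-1 replicates differed by 2.10-fold. limma gave -0.06 (SE 0.35, adjusted p = 0.968) for triple mutants over meg-3 meg-4, -0.58 (SE 0.40, adjusted p = 0.503) for triple mutants over hrde-1 and -0.58 (SE 0.40, adjusted p = 0.475) for meg-3 meg-4 over hrde-1. The authors' deposited tables called ptc-1 higher in hrde-1 than in N2, by 1.21 (adjusted p = 0.0317), and gave 0.39 (adjusted p = 0.524) for triple mutants over N2.

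ptc-3, an essential patched gene, had 8.13 and 11.7 RPM in triple mutants, 7.26 and 10.6 in meg-3 meg-4 worms, and 8.28 and 13.1 in hrde-1, with full overlap. Relative to N2 it was lower in the authors' deposited tables, by -1.33 (adjusted p = 0.00639) in triple mutants and by -1.14 (adjusted p = 0.0337) in hrde-1. ptc-2, the pseudogene of the annotation, had 3 reads.

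Of the 23 patched-related genes, 7 had at least 50 reads, 15 had at least 10 and ptr-9 had none. ptr-2 had 48.8 and 60.9 RPM in triple mutants, 63.1 and 38.0 in meg-3 meg-4 worms, and 89.3 and 52.2 in hrde-1. Its strains overlapped, as did those of ptr-13, which had 17.3 and 9.84 RPM in triple mutants, 15.7 and 13.3 in meg-3 meg-4 worms, and 11.5 and 15.8 in hrde-1. limma called neither, with adjusted p values of 0.561 to 0.942 at ptr-2 and 0.893 to 0.966 at ptr-13 over the 3 comparisons.

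ptr-21 was the patched-related gene that the authors' deposited tables called, lower by -2.28 in hrde-1 than in N2 (adjusted p = 0.00121), against -0.46 (adjusted p = 0.650) in triple mutants over N2. It had 9.22 and 6.56 RPM in triple mutants, 8.94 and 12.9 in meg-3 meg-4 worms, and 1.60 and 2.88 in hrde-1. Both hrde-1 libraries were below the other 4, whose strains overlapped. At a minimum mean of 2, limma called ptr-21 higher than in hrde-1 by 1.47 in triple mutants (adjusted p = 0.0269) and by 1.89 in meg-3 meg-4 worms (adjusted p = 0.00253). With every locus above 0 tested, the value in triple mutants had an adjusted p of 0.0567 (limma).

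ptr-14 had 3.98 and 4.69 RPM in triple mutants, 1.69 and 1.20 in meg-3 meg-4 worms, and 1.16 and 2.88 in hrde-1. Triple mutant libraries were the highest, but at a minimum mean of 2 limma gave adjusted p values of 0.264 over meg-3 meg-4 worms and 0.383 over hrde-1. ptr-3, ptr-19 and ptr-24 had 0.436 to 9.44 RPM, and the authors' deposited tables called none of these 3.

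The Dispatched-like genes che-14 and ptd-2 are related to the transporter that releases Hedgehog from cells, and CHE-14 acts in secretion at the apical face of epithelia. che-14 had 4.88 and 7.03 RPM in triple mutants, 5.74 and 4.42 in meg-3 meg-4 worms, and 5.08 and 9.24 in hrde-1, with overlap throughout, and ptd-2 had 28 reads in all. tra-1 encodes the zinc finger protein of the Gli family that ends the sex determination pathway. It had 19.7 and 19.2 RPM in triple mutants, 21.1 and 22.1 in meg-3 meg-4 worms, and 16.99 and 19.5 in hrde-1. Its replicates differed by at most 1.15-fold within a strain, and both meg-3 meg-4 libraries were the highest.

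limma called no difference at tra-1, with adjusted p values of 0.753 to 0.886. The authors' deposited tables set it lower than N2, by -1.01 in triple mutants (adjusted p = 0.00779) and by -1.04 in hrde-1 (adjusted p = 0.0190), and gave -0.21 (adjusted p = 0.998) for triple mutants over meg-3 meg-4.

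**Figure D2:**
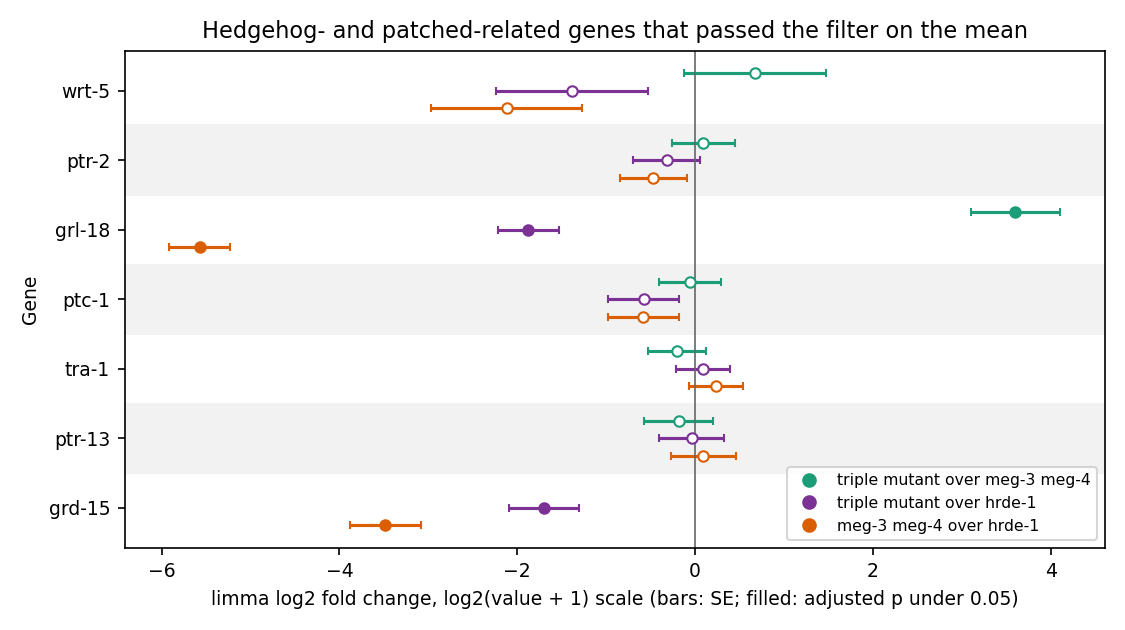
limma log2 fold changes on the log2(value + 1) scale (x axis) with their SE (bars) for the genes that passed the filter on the mean, for triple mutants over meg-3 meg-4, triple mutants over hrde-1, and meg-3 meg-4 over hrde-1; filled points have an adjusted p under 0.05. grl-18 is filled in all 3 comparisons, from -5.57 to 3.60, grd-15 in the 2 comparisons with hrde-1, and wrt-5 has the widest bars.

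The comparisons with N2 rest on the authors' deposited tables, which give a fitted log2 fold change and an adjusted p for each locus. Their fitted value for a locus near 0 reads in N2 or in the mutant depends on their model and is no bound on the change. For hrde-1 over N2 the authors' deposited table gave 27 of the 88 genes an adjusted p and called 11 of them at 0.05, or 40.7%, against 15.9% of all loci with one. Called higher were wrt-5, grl-17, grl-18, grl-10, ptc-1 and grd-15, and called lower were grd-16, grl-27, ptr-21, ptc-3 and tra-1. All 6 higher genes but ptc-1 encode hedgehog-related secreted proteins. Of such genes with an adjusted p, though, 4 of 7 ground-like and 2 of 3 groundhog genes had a fold change below 0. Their medians were -1.37 and -0.59, while the 2 wrt genes were above 0. The 5 lower genes comprise a groundhog, a ground-like, a patched-related and a patched gene and tra-1. The 27 genes held 2 wrt, 3 grd, 7 grl, 11 ptr and 2 ptc genes, with che-14 and tra-1. A difference between these families was not tested. Of all loci 8.75% were called higher and 7.19% lower. The median of the 27 genes was -0.16, and that of all loci with an adjusted p was 0.07.

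Of 22 genes with an adjusted p for triple mutants over N2, the authors' deposited table called 6, or 27.3%, against 18.8% of all loci, of which 8.77% were higher and 10% lower. These were wrt-5 and grl-18, higher, and grd-16, grl-27, ptc-3 and tra-1, lower. The median of the 22 genes was -0.48, against -0.02 for all loci. Both tables are set against N2, and whether they use the same N2 libraries was not checked. Their likeness is therefore not taken as independent evidence. Among triple mutants over meg-3 meg-4, the authors' deposited table called 2 of 19 genes, or 10.5%, grl-18 higher and grd-16 lower, against 4.33% of all loci (2.39% higher and 1.94% lower), with medians of -0.11 and -0.10.

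**Figure D3:**
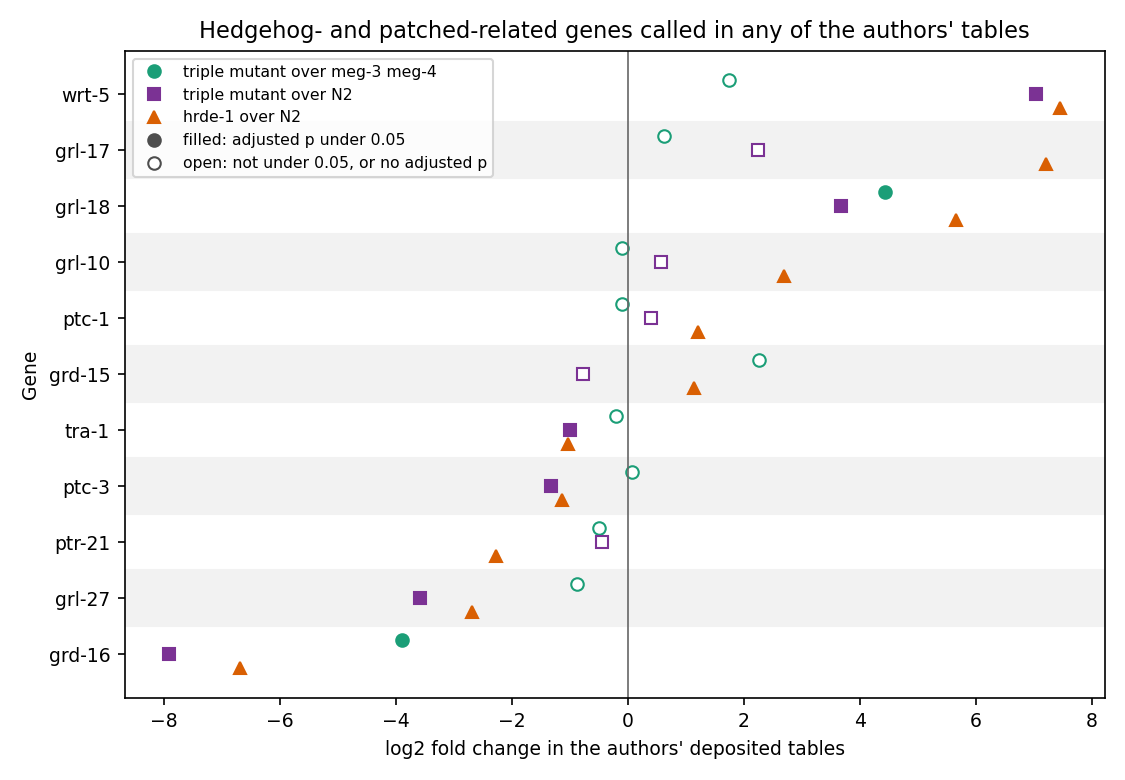
log2 fold changes (x axis) in the authors' deposited tables for the 11 genes called in at least 1 of them, for triple mutants over meg-3 meg-4, triple mutants over N2 and hrde-1 over N2; filled symbols have an adjusted p under 0.05. grl-18 and grd-16 are filled in all 3 tables, and wrt-5 has 7.03 and 7.45 over N2 but an open symbol at 1.74 over meg-3 meg-4 worms.

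The neighbours of the called genes were read in the order of the WBcel235 annotation. The window of 6 protein-coding loci on each side was chosen after the values were seen. grl-18 lay in a run of 6 adjacent protein-coding loci, srg-66, srg-65, grl-18, T05C3.6, T05C3.2 and dnj-19. All 6 were called higher in hrde-1 than in N2 in the authors' deposited table. Their log2 fold changes were 1.24, 3.87, 5.65, 4.16, 4.999 and 1.05. Of all loci with an adjusted p in that table, 8.75% were called higher, and the run was not tested against that share. Farther out in the same window, the authors' deposited table also called hpo-15 higher by 2.92 (adjusted p = 1.13e-14) and ZC317.6 by 1.88 (adjusted p = 0.00234), with loci that were not called between them and the run. The srg genes encode chemoreceptors of the serpentine type. srg-65 had 13.0 and 3.75 RPM in triple mutants, 1.18 and 1.20 in meg-3 meg-4 worms, and 62.7 and 74.6 in hrde-1.

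In triple mutants the run of loci did not move together. The authors' deposited table of triple mutants over N2 gave 3.67 at grl-18. On the near side it gave 0.85 at srg-65 (adjusted p = 0.446) and called srg-66 lower, by -1.24 (adjusted p = 0.0362). The loci on the far side of grl-18 differed from each other. T05C3.6 had 13.6 and 7.03 RPM in triple mutants, 8.61 and 11.04 in meg-3 meg-4 worms, and 281 and 369 in hrde-1, so triple mutants overlapped meg-3 meg-4. T05C3.2 had 77.3 and 43.1 RPM in triple mutants, 4.22 and 2.61 in meg-3 meg-4 worms, and 68.2 and 72.5 in hrde-1, so there triple mutants overlapped hrde-1.

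limma gave triple mutants over hrde-1 a log2 fold change of -4.90 at T05C3.6 (SE 0.36, adjusted p = 1.63e-06), -3.09 at srg-65 (SE 0.47, adjusted p = 0.000529) and -0.28 at T05C3.2 (SE 0.35, adjusted p = 0.693), around -1.88 at grl-18. srg-65 passed the filter through hrde-1 alone. In triple mutants over meg-3 meg-4, T05C3.2 was higher by 3.68 (SE 0.39, adjusted p = 1.68e-05, limma), beside 3.60 at grl-18, and it too passed the filter through triple mutants alone. Differences between these neighbouring loci were not tested. grl-18 overlaps neither neighbour in the annotation.

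grd-16 had a neighbour with the same order of strains. Y69A2AL.2, the next protein-coding locus on the same strand, had 2 and 0 reads in triple mutants, 39 and 34 in meg-3 meg-4 worms, and 5 and 1 in hrde-1. The authors' deposited tables gave Y69A2AL.2 -4.82 (adjusted p = 0.00855) for triple mutants over meg-3 meg-4, -7.90 (adjusted p = 3.50e-12) for triple mutants over N2 and -6.84 (adjusted p = 8.18e-22) for hrde-1 over N2. On the other side of grd-16, ilys-1 had 1 read in all 6 libraries.

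Neither protein-coding neighbour of wrt-5 followed it. The first, pcn-1, which encodes the sliding clamp of DNA replication, had 15.9 and 22.97 RPM in triple mutants, 18.1 and 15.7 in meg-3 meg-4 worms, and 24.4 and 17.9 in hrde-1. limma gave pcn-1 adjusted p values of 0.703 to 0.923, and the second, ilys-6, had 2 reads in all. F35F11.2, the third locus from wrt-5, had 9.76 and 13.1 RPM in triple mutants, 9.11 and 17.5 in meg-3 meg-4 worms, and 48.1 and 75.8 in hrde-1, and its triple mutant libraries were close to each other.

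**Figure D4:**
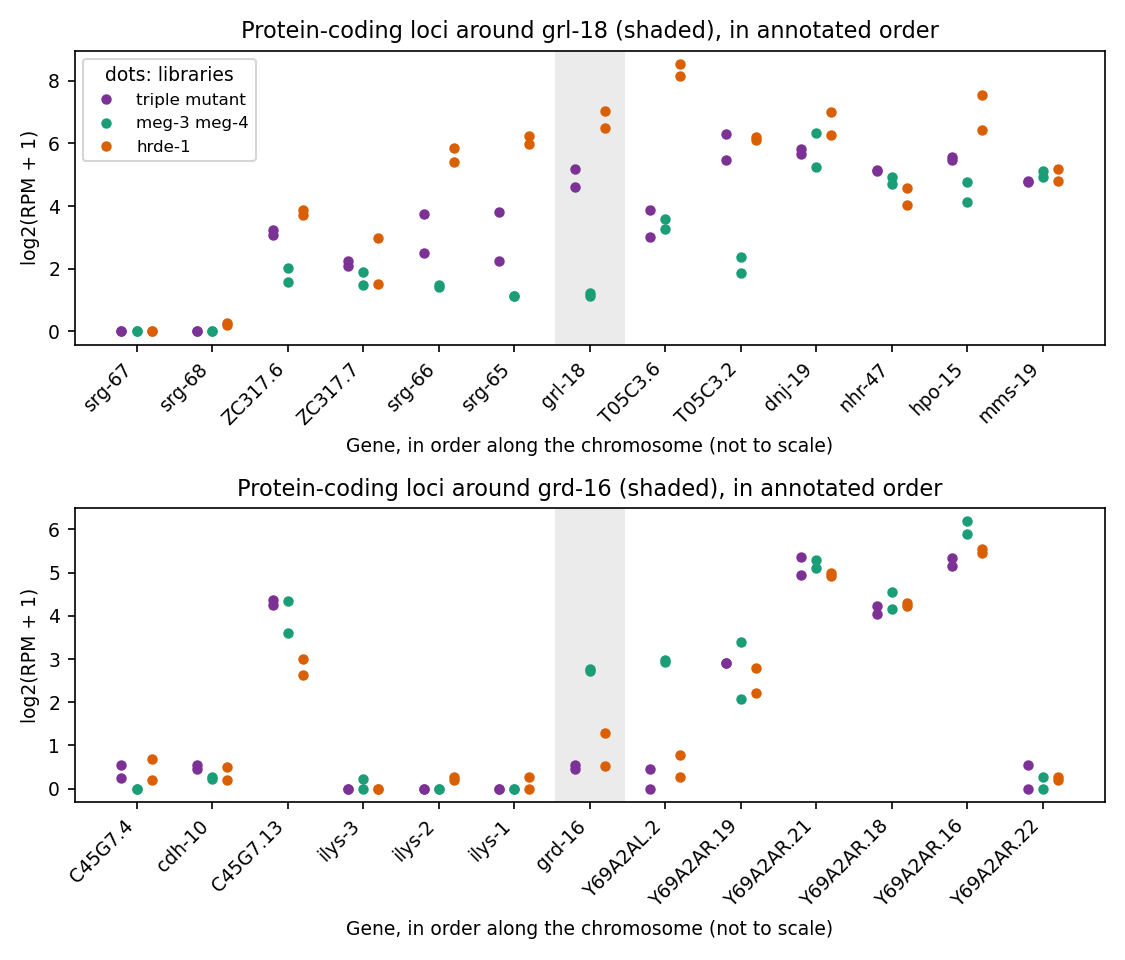
Small RNA level as log2(RPM + 1) (y axis) at the protein-coding loci around grl-18 (top) and grd-16 (bottom), in annotated order on the x axis and not to scale; dots are triple mutant, meg-3 meg-4 and hrde-1 libraries. From srg-66 to T05C3.2 the hrde-1 dots are above those of meg-3 meg-4 worms, triple mutant dots reach them at T05C3.2, and at grd-16 and Y69A2AL.2 both meg-3 meg-4 dots stand above the rest.

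Other genes of the same processes were read from lists of known genes that leave out the 88. Of 36 moulting and epidermal factors, 33 were in the tables. In the authors' deposited tables none of them was called higher than N2, while 8 of 17 were called lower in triple mutants and 4 of 18 in hrde-1, against 10% and 7.19% of all loci called lower. pan-1, a transmembrane protein needed to moult, was lower by -2.02 in triple mutants (adjusted p = 1.50e-30) and by -0.95 in hrde-1 (adjusted p = 0.00273) in the authors' deposited tables. mlt-11, a protease inhibitor of the moult, had -1.61 (adjusted p = 0.00662) and -1.86 (adjusted p = 0.00190) in the same 2 deposited tables of the authors. The medians of the genes with an adjusted p were -0.83 in triple mutants and -0.66 in hrde-1, against -0.02 and 0.07 for all loci. Of 15 with an adjusted p for triple mutants over meg-3 meg-4 in the authors' deposited table, xrn-2, a nuclear exonuclease, was called lower by -1.13 (adjusted p = 0.0137).

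In each comparison with hrde-1, limma called 1 of the 8 moulting factors tested, against 10.3% of all loci for triple mutants and 16.4% for meg-3 meg-4 worms, so the count was near that of all loci. lin-42, the period-like gene that times the moults, was higher than in hrde-1 by 1.46 in triple mutants (adjusted p = 0.0251, limma) and by 1.63 in meg-3 meg-4 worms (adjusted p = 0.00779, limma).

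Around tra-1, all 22 listed sex determination genes were in the tables. Over N2, the authors' deposited table of triple mutants called 4 of 20 lower, against 10% of all loci, among them tra-3, a calpain protease that promotes female development, with -3.13 (adjusted p = 3.23e-14), and sdc-1, a zinc finger protein of sex determination and dosage compensation, with -2.48 (adjusted p = 4.65e-11). For hrde-1 over N2, 4 of 20 were called lower in the authors' deposited table, against 7.19% of all loci, and mab-3, a direct target of TRA-1 that acts in males, was called higher by 2.39 (adjusted p = 1.87e-06). The medians of the 20 were -0.10 in triple mutants and 0.27 in hrde-1, beside -0.02 and 0.07 for all loci.

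mab-3 had 8.49 and 6.09 RPM in triple mutants, 3.04 and 1 in meg-3 meg-4 worms, and 19 and 23.6 in hrde-1. Its groups did not overlap, and limma put it lower by -2.96 in meg-3 meg-4 worms than in hrde-1 (SE 0.46, adjusted p = 0.000325, limma), the 1 gene called of 14 tested, against 16.4% of all loci. It passed the filter through hrde-1 alone. Compared with hrde-1, triple mutants had 2 of 14 called lower, against 5.91% of all loci, tra-3 by -1.45 (adjusted p = 0.0405, limma) and sdc-3 by -1.11 (adjusted p = 0.0491, limma). tra-3 passed the filter through hrde-1 and meg-3 meg-4 worms, not through triple mutants. Compared with meg-3 meg-4, triple mutants had 1 of 12 called, against 7.75% of all loci. This was sdc-1, lower by -1.41 (SE 0.38, adjusted p = 0.0343, limma), which passed the filter through meg-3 meg-4 worms alone.

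Of 10 sterol handling genes in the tables, nhr-8, a nuclear receptor of sterol metabolism, was the 1 of 8 called over N2 in the authors' deposited tables, higher by 0.82 in triple mutants (adjusted p = 0.0147) and by 1.24 in hrde-1 (adjusted p = 0.00134). Of all loci 18.8% and 15.9% were called in these tables, so 1 of 8 is no higher a share. Of 19 seam cell and epidermal fate genes, 10 had an adjusted p for triple mutants over N2. None of these was called, against 18.8% of all loci, and their median was 0.27, beside -0.02 for all loci. For hrde-1 over N2, 13 had an adjusted p, with a median of 0.10, beside 0.07 for all loci. Of these 13, 2 were called lower, against 7.19% of all loci. These 2, sma-1 and vab-10, a spectrin and a spectraplakin that hold the shape of the epidermis, were lower in hrde-1 than in N2 by -1.33 (adjusted p = 3.11e-05) and -0.98 (adjusted p = 0.00525) in the authors' deposited table. limma tested 6 genes of that list against hrde-1. It called 1 higher in triple mutants, sma-1 by 1.53 (adjusted p = 0.0313, limma), against 4.37% of all loci. In meg-3 meg-4 worms it called 2 higher, sma-1 by 2.03 (adjusted p = 0.00306, limma) and vab-10 by 1.43 (adjusted p = 0.0158, limma), against 7.02% of all loci.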

How the data were processed

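The authors deposited 3 tables of 42402 loci with values per library that are fpm per the file headers, together with log2 fold changes and adjusted p-values of hrde-1 over N2, triple mutants over N2, and triple mutants over meg-3 meg-4. The second of these deposited tables holds RPM of the library total, and the other 2 hold a scaled signal, which per the file headers and the column sums is not RPM. cutadapt, Bowtie2, HTSeq and DESeq2 with the build ce10 are named per the submitters' processing notes; the tool versions, the strand setting and the treatment of multiply mapped reads were not given in these notes. Another 4 columns of single libraries and 6 columns of means were not used here.

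Each deposited value was divided by the smallest value above 0 of its library, and 100% of values came out as whole reads within 0.001 read. The replicates of each strain differed beyond sampling noise. Triple mutants were compared with meg-3 meg-4 worms on the deposited signal of the table that holds both. Comparisons with hrde-1 used the recovered reads of all 6 libraries, scaled with TMM to RPM, in 1 model of 3 groups. limma 3.58.1 (R 4.3.3) with a mean-variance trend was fitted to log2(value + 1) over all loci with a mean of at least 10, with Benjamini-Hochberg adjustment at 0.05, since the deposited values are normalized. Fold changes on this scale understate those of low loci. edgeR 4.0.16 on the recovered reads called 481 loci for triple mutants over meg-3 meg-4, 656 for triple mutants over hrde-1 and 1073 for meg-3 meg-4 over hrde-1, against 470, 665 and 1061 by limma. DESeq2 1.42.0 was another alternative. All tests were two-sided. The programs were checked on simulated counts with the same dispersion at every locus. That check does not cover genes whose replicates lie as far apart as those of wrt-5.

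Genes named in full were those called in any comparison or with at least 50 reads, and of each pathway list at most 4 called genes. The genes and lists were chosen with earlier results of these data known. Neighbours, strands and gene classes came from Ensembl release 115 (WBcel235), which matched all 88 genes; the build differs from that of the files, so no coordinates are given, and no sequences were used here. Of the 88 genes, 43 overlap another annotated locus, 27 of them a protein-coding one, and copies within the families may share reads.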

Additional observations from a re-analysis of the deposited data

How the results depend on the processing

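Depth limits most of these genes: 6 or 7 of 88 passed the filter on the mean. grl-18 was called in all 15, 19 and 19 settings in which it could be tested (triple mutants over meg-3 meg-4, triple mutants over hrde-1, meg-3 meg-4 over hrde-1). For triple mutants over meg-3 meg-4, a minimum mean of 2 called 3 of 19 genes tested, against 570 of all 11095 loci. Any value above 0 called 3 of 73, against 700 of 28664. A minimum of 20, where grl-18 was not tested, called 0 of 3, against 389 of 4078. Fitting all 6 libraries called 2 of 7, against 512 of 6469. Among triple mutants over hrde-1, scaling to miRNA reads called 7 of 8 genes tested. It also called 5125 of all 6784 loci, 5084 of them lower, so that count is not particular to these genes. Minimum means of 2 and 20 called 5 of 21 and 1 of 4, against 859 of 11382 and 542 of 4521 loci. For meg-3 meg-4 over hrde-1, scaling to miRNA reads called 5 of 8 genes tested, against 3106 of all 6784 loci. Minimum means of 2 and 20 called 6 of 21 and 1 of 4, against 1592 of 11382 and 822 of 4521. Any value above 0 called 8 of 77, against 1506 of 30542. At an adjusted p of 0.01, the authors' deposited table called 7 of 27 genes for hrde-1 over N2, against 1524 of 13876 loci. For triple mutants over meg-3 meg-4 it called 1 of 19, against 360 of 11871 loci. The median of all loci was -0.60 with library totals and -1.27 with miRNA reads for triple mutants over hrde-1, -0.34 and -1.06 for meg-3 meg-4 over hrde-1, and -0.29 with totals for triple mutants over meg-3 meg-4. Signs turned only at values that were not called in the analysis as reported. For meg-3 meg-4 over hrde-1 these were ptr-13 (-0.086 with totals, -0.78 with miRNA reads) and tra-1 (-0.65 with miRNA reads). Over hrde-1 in triple mutants they were tra-1 (-0.32 with totals, -0.98 with miRNA reads, adjusted p = 0.0255 by limma) and ptr-13 (0.044 with edgeR, 0.022 with DESeq2). Over meg-3 meg-4 they were ptc-1 (0.0029 with all 6 libraries) and ptr-2 (-0.088 with totals, -0.039 with miRNA reads, -0.026 with edgeR). The deviations of libraries with the same replicate number correlated at 0.56 between hrde-1 and meg-3 meg-4. The correlations were -0.19 between hrde-1 and triple mutants and -0.11 between triple mutants and meg-3 meg-4. The fits as reported had no replicate term. With a replicate block, 1 of 6 genes was called for triple mutants over meg-3 meg-4, against 438 of 6067 loci. That block gave 2 of 7 for triple mutants over hrde-1, against 831 of 6469 loci, and 3 of 7 for meg-3 meg-4 over hrde-1. In the last of these, calls over all loci went from 1061 to 1251. wrt-5, not called as reported, was called for meg-3 meg-4 over hrde-1 with that block (adjusted p = 0.0252, limma) and in 8 other settings, and for triple mutants over hrde-1 in 3. Leaving out 1 library also turned signs. For meg-3 meg-4 over hrde-1, ptc-1 ranged over -1.11 to 0.14 and ptr-2 over -0.86 to 0.11. In triple mutants over hrde-1, ptc-1 ranged over -1.24 to 0.013, ptr-2 over -0.84 to 0.13, ptr-13 over -0.42 to 0.34 and wrt-5 over -3.36 to 0.59. In triple mutants over meg-3 meg-4, ptc-1 ranged over -0.42 to 0.31, ptr-2 over -0.23 to 0.42, ptr-13 over -0.56 to 0.19 and wrt-5 over -1.30 to 2.65. A strain left with 1 library was assumed to vary like the others.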
